A study of Mus musculus with 6 samples.

Results

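The 6 genes described here are Alx1, Alx4, Pax1, Pax3, Pax7 and Pax9, transcription factors that pattern the frontonasal and craniofacial tissues. They were chosen by gene symbol, 6 of 23420 genes counted, and each of the 6 passed the filter on low counts that left 16604 genes to test. RNA was sequenced from the mouse tissue that becomes the anterior hard palate, taken from C57BL/6 embryos at E14.5. The control genotype was Shox2Cre/+;Nkx2.5F/F and the mutant genotype Shox2Cre/-;Nkx2.5F/F, with 3 libraries each. All embryos thus carried a Cre allele at Shox2, a homeobox gene of the anterior palate, together with Nkx2-5 floxed on both alleles. Controls had 1 intact copy of Shox2 and were not wild type, whereas in mutants the copy opposite the Cre allele was null. The Cre allele acts where the Shox2 locus is active. The labels do not give the number of embryos behind a library, so p-values reflect the spread among libraries, which may be technical.

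Alx proteins bind DNA through a paired-class homeodomain and have no paired domain, although they are grouped here with Pax factors. Alx genes are expressed in frontonasal mesenchyme of neural crest origin, and their loss causes midline facial clefts. Pax proteins are named for their DNA-binding paired domain. Pax1 and Pax9 have that domain without a homeodomain and act in pharyngeal pouches and sclerotome, and Pax9 is also required for the palatal shelves and teeth. Pax3 and Pax7 have both domains and act in neural crest, dorsal neural tube and muscle progenitors.

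Shox2, the gene whose alleles differ between the groups, had 88.2, 68.2 and 81.7 CPM (counts relative to library size after TMM scaling) in control replicates 1, 2 and 3. It had 5.30, 4.12 and 3.13 CPM in the mutants. Total counts ran from 81950407 to 134813429 in the controls and from 52668242 to 53331397 in the mutants, so depth and genotype cannot be told apart. Mutant replicate 1 stood apart from its group on the second principal component (35.2 against -13.9 and -17.2), and even numbers made up 99.7% of its counts between 5 and 50, against 63.6% to 73.0% in the other 5 libraries. Control replicate 1 had the most skeletal muscle fibre RNA, with a summed level over 10 fibre genes of 68.5 CPM against 10.8 and 24.1 CPM in the other controls. In bulk tissue a change in the number of cells of a type and a change in RNA per cell cannot be told apart.

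Of the 6 members, 3 passed the test at an adjusted p under 0.05 and all 3 were higher in the mutant. Over all genes tested, 45.8% passed, with 24.1% of all genes higher in the mutant and 21.7% lower, so the number of members that passed was close to what the share of all genes gives. Pax3 rose most, by a fold of 2.23, followed by Alx1 (1.57) and Pax9 (1.42). Alx4, Pax1 and Pax7 did not pass and had groups that overlapped. The groups did not overlap for the same 3 members that passed, where 58.9% of all genes had groups without overlap and 29.7% had all mutants above all controls. The median log2 fold change of the 6 was 0.37, beside -0.00433 for all genes tested.

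**Figure D1:**
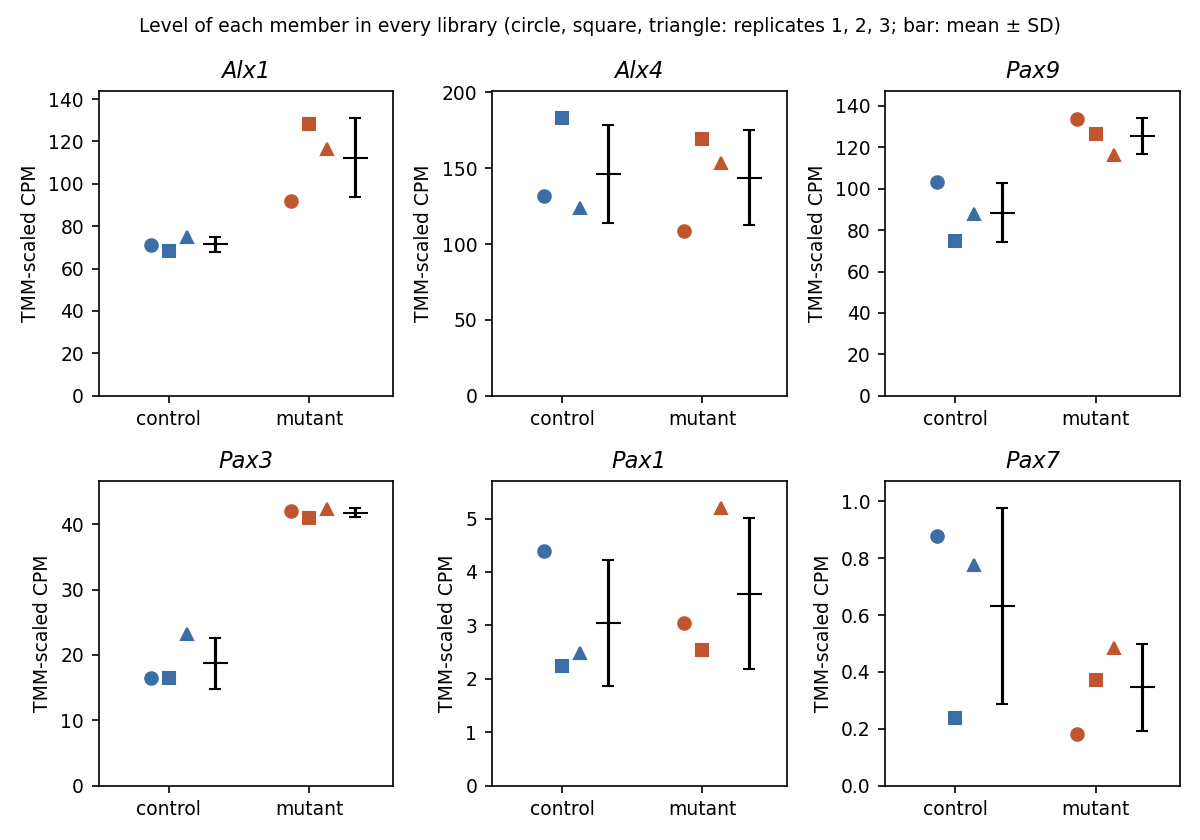
Level of each member (TMM-scaled CPM, axes starting at 0) in the 3 control and 3 mutant libraries, with symbols for replicate number and bars for the mean ± SD (n = 3). All mutant points lie above all control points for Alx1, Pax9 and Pax3, and the groups overlap for Alx4, Pax1 and Pax7.

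Alx1, whose loss in mice disturbs cranial neural tube and facial closure, lies on chromosome 10 from 102998707 to 103030215, minus strand (GENCODE M21 on GRCm38). It was measured at 70.9, 68.1 and 75.1 CPM in control replicates 1, 2 and 3 and at 91.9, 128 and 117 CPM in the mutants. The controls lay close together and every mutant library was above them, with mutant replicate 1 the lowest of the 3. The mean rose from 71.4 ± 3.52 to 112 ± 18.6 CPM (SD, n = 3 each), or on the log2 scale by 0.65 (SE 0.12, 95% interval 0.37 to 0.94, edgeR adjusted p = 0.00451). Without replicate 1 of both groups it was 0.76 (SE 0.08, edgeR adjusted p = 0.000367). A covariate was then added for the summed level of Y-linked transcripts, with which the edgeR adjusted p was 0.0495. That sum was 36.2 to 192 CPM in the controls and 199 to 244 CPM in the mutants. Every mutant thus lay above every control, so the effect of this covariate cannot be fully told apart from that of genotype.

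Alx4, which acts in the skull vault, face and limb, lies on chromosome 2 from 93642384 to 93681339, plus strand. Its level was 131.6, 183 and 124 CPM in the controls and 109, 169 and 153 CPM in the mutants. The groups overlapped, with control replicate 2 highest and mutant replicate 1 lowest. The means were 146 ± 32.2 and 144 ± 31.3 CPM, with a log2 fold change at -0.02 (SE 0.20, edgeR adjusted p = 0.93). The 95% interval ran from a fold of 0.711 to 1.36, so a change within those bounds was not excluded by these libraries. The sign of this value changed between scalings and between libraries left out. Ext2, a heparan sulphate enzyme gene that overlaps Alx4 on the opposite strand outside its exons, had 149 ± 12.2 CPM in the controls and 155 ± 1.85 CPM in the mutants.

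The ratio of Alx1 to Alx4 per kilobase of exon, which does not depend on the scaling between libraries, was 0.661, 0.456 and 0.745 in the controls and 1.04, 0.932 and 0.933 in the mutants. Alx1 was thus at about the level of Alx4 in each mutant and below it in each control. The mean log2 ratio was 0.67 higher in the mutant (exact permutation test, two-sided, p = 0.1, the smallest that 3 against 3 allows, and 0.15 adjusted over the 3 ratios computed).

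Pax9, needed for palatal shelf growth and tooth development, lies on chromosome 12 from 56691767 to 56712822, plus strand. Its close relative Pax1, a factor of sclerotome and pharyngeal pouches, lies on chromosome 2 from 147361925 to 147393295, plus strand. The RefSeq promoter windows of both are shown because Pax9 passed the test and Pax1 did not, with the homeodomain core motif TAAT, searched on both strands, in capitals. Each window holds 250 bases before and 50 bases after the RefSeq start in GRCm38.p6, at chr12:56695221-56695520 for Pax9 and chr2:147364744-147365043 for Pax1, both on the plus strand.
Pax9: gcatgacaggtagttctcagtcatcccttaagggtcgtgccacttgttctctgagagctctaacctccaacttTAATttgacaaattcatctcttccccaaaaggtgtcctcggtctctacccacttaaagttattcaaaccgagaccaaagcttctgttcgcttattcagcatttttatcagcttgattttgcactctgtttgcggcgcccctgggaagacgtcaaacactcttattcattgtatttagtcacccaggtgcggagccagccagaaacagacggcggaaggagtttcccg
Pax1: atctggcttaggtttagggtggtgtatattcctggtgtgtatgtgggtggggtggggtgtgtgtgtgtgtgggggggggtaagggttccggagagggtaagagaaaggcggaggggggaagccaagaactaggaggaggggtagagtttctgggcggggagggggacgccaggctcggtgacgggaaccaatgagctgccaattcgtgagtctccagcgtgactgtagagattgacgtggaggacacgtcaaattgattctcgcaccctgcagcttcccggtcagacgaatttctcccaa
The Pax9 window held 1 TAAT match, starting at base 74 of the window, and the Pax1 window held none. Of 32851 promoters of the same length, 58.0% held at least 1 match. The longer form TAATTA, which contains that core, was in neither window and in 5.3% of all promoters. The windows differed in base composition, with a GC content of 47.0% for Pax9 and 57.3% for Pax1. Pax7, which also has an entry, had no match to either motif and 63.7% GC. The RefSeq starts lie 3704 bases (Pax9) and 3069 bases (Pax1) inside the longer gene that GENCODE M21 annotates.

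Pax9 was measured at 103, 74.5 and 87.6 CPM in the controls and at 134, 126 and 116 CPM in the mutants. Every mutant library lay above every control, with control replicate 2 the lowest. The mean rose from 88.5 ± 14.4 to 125 ± 8.66 CPM (SD, n = 3 each), or on the log2 scale by 0.50 (SE 0.12, 95% interval 0.22 to 0.79, edgeR adjusted p = 0.013). With the Y-linked covariate Pax9 did not pass (log2 fold change 0.26, SE 0.10, edgeR adjusted p = 0.1), and without replicate 1 of both groups it did (0.57, SE 0.09, edgeR adjusted p = 0.00226). Slc25a21, a mitochondrial carrier gene whose exons overlap those of Pax9 on the opposite strand, had 7.92 ± 0.669 CPM in the controls and 8.24 ± 1.31 CPM in the mutants.

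Pax9 is expressed in oral and pharyngeal epithelium as well as in mesenchyme. All 10 epithelial markers measured were higher in the mutant, and their summed level was 1697, 1013 and 1691 CPM in the controls and 5517, 5282 and 5944 CPM in the mutants. Krt8, a keratin of simple epithelium, was 2.02 higher (SE 0.12), and Cdh1, the epithelial cadherin, 1.96 higher (SE 0.21). Control replicate 2 was the lowest library for both this sum and Pax9. Among the mutants, replicate 3 had the highest sum and the lowest Pax9 (116 CPM). Control replicates 1 and 3 had sums of 1697 and 1691 CPM, with Pax9 at 103 and 87.6 CPM. The part of epithelial RNA in the rise of Pax9 was not tested.

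Pax1 was at a low level, with a sum of 910 control counts and 584 mutant counts. This corresponds to 4.39, 2.25 and 2.47 CPM and to 3.05, 2.53 and 5.19 CPM. The groups overlapped, with mutant replicate 3 and control replicate 1 high. Its log2 fold change was 0.24 (SE 0.37, 95% interval -0.63 to 1.11, edgeR adjusted p = 0.62), so a doubling was within the interval. Without mutant replicate 3 the value was -0.12. AI646519, an annotated antisense gene whose exons overlap Pax1, had 0.256 ± 0.144 CPM in the controls and 0.343 ± 0.242 CPM in the mutants. The ratio of Pax1 to Pax9 per kilobase was 0.0478, 0.034 and 0.0318 in the controls and 0.0257, 0.0226 and 0.0502 in the mutants, which overlap (exact permutation test, two-sided, p = 0.6).

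Pax3, a factor of neural crest and muscle progenitors whose loss causes the Splotch phenotype, lies on chromosome 1 from 78101267 to 78197134, minus strand. It was measured at 16.5, 16.4 and 23.2 CPM in the controls and at 42.0, 41.0 and 42.3 CPM in the mutants. The mutants lay within a narrow range, and each was above the highest control, replicate 3. The mean rose from 18.7 ± 3.91 to 41.8 ± 0.665 CPM (SD, n = 3 each), or on the log2 scale by 1.16 (SE 0.15, 95% interval 0.81 to 1.5, edgeR adjusted p = 0.00102). Of all genes tested, 17.4% had a larger log2 fold change in either direction. Pax3 stayed past the threshold with each library left out, at values from 1.06 to 1.34.

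Pax7, which marks muscle satellite cells and part of the cranial neural crest, lies on chromosome 4 from 139737062 to 139833528, minus strand. It had 71, 24 and 103 counts in the controls and 10, 20 and 26 counts in the mutants, the fewest of the 6. At 0.878, 0.238 and 0.777 CPM in the controls and 0.182, 0.370 and 0.484 CPM in the mutants the groups overlapped, since control replicate 2 lay among the mutants. The estimated log2 change was -0.87 (SE 0.60, 95% interval -2.28 to 0.54, edgeR adjusted p = 0.274). Neither a fall by 2 nor a rise by 0.5 on the log2 scale was outside that interval at this depth. The ratio of Pax3 to Pax7 per kilobase was 17.8, 65.4 and 28.3 in the controls and 219, 105 and 82.7 in the mutants, without overlap. The mean log2 ratio was 1.95 higher in the mutant (exact permutation test, two-sided, p = 0.1, and 0.15 adjusted over the 3 ratios).

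**Figure D2:**
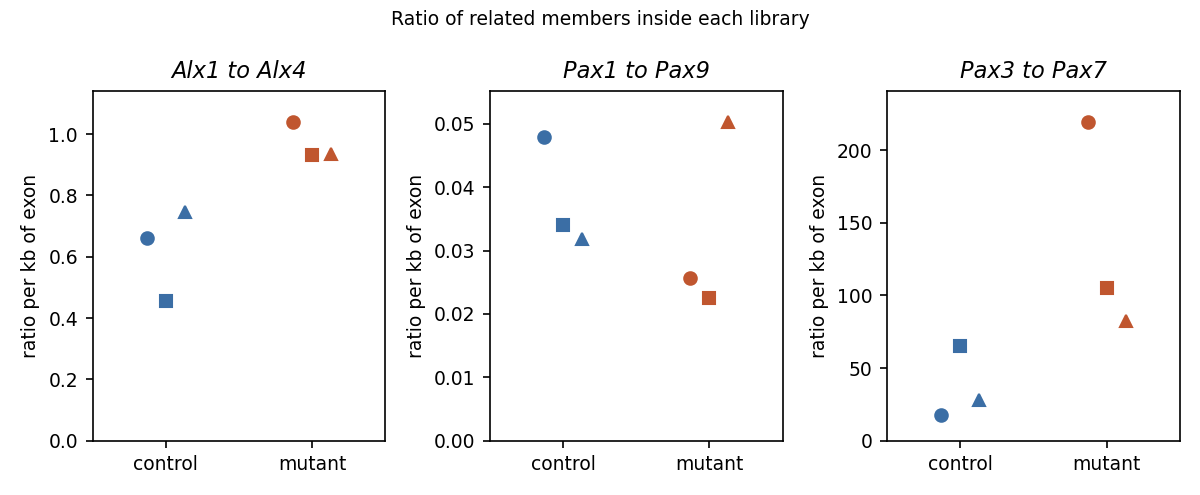
Ratio of the counts per kilobase of exon of 2 related members inside each library (linear axes starting at 0), with symbols for replicates 1, 2 and 3 as circle, square and triangle. The Alx1 to Alx4 and Pax3 to Pax7 ratios are higher in every mutant than in every control, and the Pax1 to Pax9 ratios overlap.

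**Figure D3:**
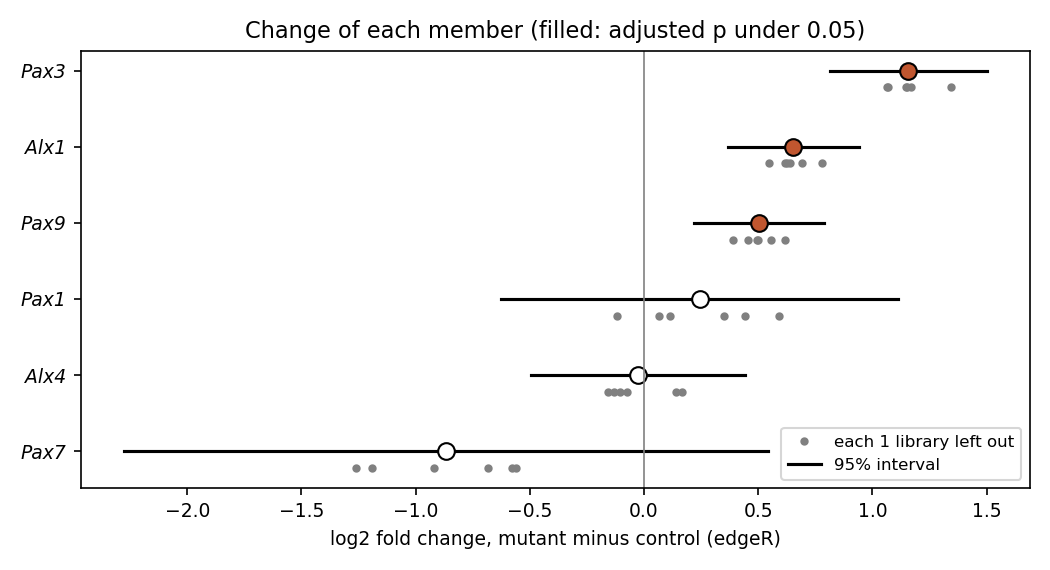
Log2 fold change of each member, mutant minus control, from edgeR with its 95% interval, and the values with each of the 6 libraries left out in turn as grey points. Intervals for Pax3, Alx1 and Pax9 lie above 0, and those of Pax1, Alx4 and Pax7 include 0.

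Compared per kilobase of exon (RPKM from the TMM-scaled values and the GENCODE exon length), Alx4 was the most abundant member in the controls at 20.7 ± 4.56 RPKM. Pax9 followed at 17.5 ± 2.85 and Alx1 at 12.4 ± 0.612 RPKM. The ranges of Alx4 and Pax9 overlapped, whereas every control library had less Alx1 than any had Pax9. Pax3 stood at 3.02 ± 0.632, Pax1 at 0.676 ± 0.262 and Pax7 at 0.108 ± 0.0588 RPKM, with no overlap between these 3. In the mutants the order of the first 3 was Pax9 (24.8 ± 1.71), Alx4 (20.3 ± 4.43) and Alx1 (19.5 ± 3.23 RPKM). There the ranges of Pax9 and Alx4 overlapped (23.0 to 26.4 and 15.4 to 23.9 RPKM), as did those of Alx4 and Alx1. Pax3 reached 6.75 ± 0.108 RPKM, Pax1 was at 0.800 ± 0.314 RPKM and Pax7 at 0.0589 ± 0.0261 RPKM.

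**Figure D4:**
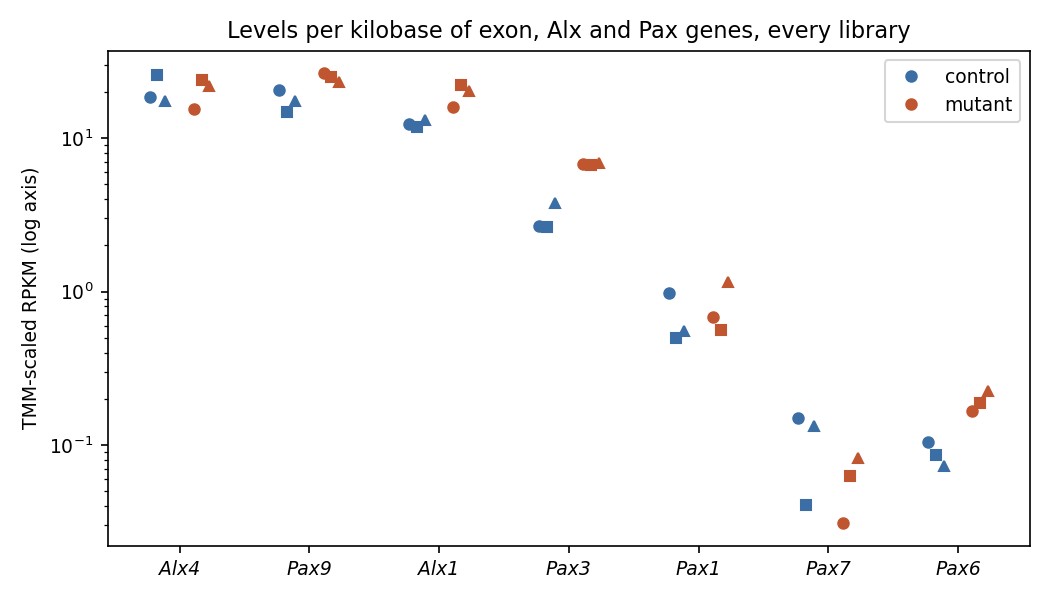
Level per kilobase of exon (TMM-scaled RPKM, log axis) of the 6 members and of Pax6 in every library, with symbols for replicates 1, 2 and 3 as circle, square and triangle. Alx4, Pax9 and Alx1 lie above 10 RPKM in all 6 libraries, and Pax7 lies below 0.15 RPKM in each.

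Of the Pax genes that are not members, Pax6 was the most counted, and none of the others had more than 46 counts over either group. Pax6, an eye and forebrain factor, had 1.22, 1 and 0.860 CPM in the controls and 1.96, 2.20 and 2.62 CPM in the mutants, a rise of 1.14 on the log2 scale (SE 0.27, edgeR adjusted p = 0.0119). With the Y-linked covariate Pax6 did not pass (edgeR adjusted p = 0.104). Pax5, a B cell factor, was counted 12 times in the controls and 46 times in the mutants, 2.86 higher on the log2 scale (SE 0.85, edgeR adjusted p = 0.0279). Pax2 was counted 0 and 6 times, and Pax8 8 and 4 times. Pax4 had no counts, which allows up to 0.00932 CPM over the controls and 0.0189 CPM over the mutants if each count is independent.

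Paired-class homeobox genes and Pax genes other than the members moved in both directions. Of 26 listed, 14 were tested, and 6 rose, 4 fell and 4 did not pass, with a median log2 fold change at 0.36. With limma-voom, 2 were called lower. Over all genes tested, 24.1% rose and 21.7% fell, the shares to set beside the counts of this list and of those that follow. Shox2 itself fell (-4.24, SE 0.21, edgeR adjusted p = 0.000137). Otx1, a head and sense organ factor, rose from 4.59, 2.37 and 3.18 CPM to 16.4, 20.1 and 17.7 CPM (2.42, SE 0.25). Dmbx1 rose from a sum of 55 control counts to 309 in the mutants (3.38, SE 0.47).

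Genes that act with Pax9 and Msx1 in palate and tooth were lower or did not pass, apart from 1. Of 17 tested, 7 fell, 1 rose and 9 did not pass, with a median of -0.46, where 21.7% of all genes fell and 24.1% rose. Without control replicate 1 the number that rose was 2. Msx1, a homeobox gene whose protein partners Pax9 at the Bmp4 gene, had 117, 88.3 and 98.6 CPM in the controls and fell to 20.5, 27.2 and 24.9 CPM (-2.07, SE 0.14). Every mutant was far below every control for Msx1 while Pax9 was above. Tfap2b, an AP-2 factor of neural crest, fell (-2.69, SE 0.16), and so did the dental signal Fgf3 (-7.53, SE 0.57). Dkk2, a secreted WNT modulator, was the gene that rose (1.21, SE 0.08), and edgeR adjusted p for these 4 lay between 0.000189 and 0.000234. Bmp4 itself had 35.1, 44.6 and 49.0 CPM in the controls and 28.3, 43.6 and 40.3 CPM in the mutants and did not pass (-0.20, SE 0.19).

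Genes that work with Pax1 and Pax9 in sclerotome and cartilage showed 4 lower and 0 higher of 11 tested, with a median of -0.25. Col2a1, the main cartilage collagen, fell (-1.71, SE 0.20, edgeR adjusted p = 0.000725), and Tbx18 (-2.11, SE 0.50) and Twist1 (-0.44, SE 0.11) fell with adjusted p of 0.0121 and 0.0123. Tbx18 did not pass with limma-voom, and Twist1 did not with the Y-linked covariate. Sox9, the chondrocyte factor, did not pass (-0.12, SE 0.21). Acan, of the same list, did not pass either, and its value had the opposite sign to that of Col2a1 (0.79, SE 0.44). At an unadjusted p under 0.05 the number of higher genes in this list was also 0, and with the Y-linked covariate 1 passed.

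Muscle genes that Pax3 and Pax7 act with moved in both directions. Of 13 tested, 2 rose, 5 fell and 6 did not pass, with a median of -0.22. The receptor gene Met, a known target of Pax3 in migrating muscle precursors, rose from 28.1, 31.0 and 31.5 CPM to 55.1, 49.1 and 52.5 CPM (0.79, SE 0.08, edgeR adjusted p = 0.000506). Eya2, a transcriptional cofactor, rose (0.77, SE 0.16), and its relative Eya1 fell (-0.52, SE 0.07). With the Y-linked covariate Eya2 did not pass (0.44, edgeR adjusted p = 0.0587), and 1 gene of the list rose. Cdh15, a cadherin of muscle cells, fell (-2.20, SE 0.28, edgeR adjusted p = 0.00109). The myogenic factor Myod1 had 193, 18 and 94 counts in the controls and 0, 10 and 6 in the mutants. It was among the 5 that fell, although its groups overlapped (-3.44, SE 1.18, edgeR adjusted p = 0.0476). Myf5 had 29, 8 and 7 counts in the controls and 0, 0 and 0 in the mutants, too few to be tested. The count of genes that fell was 2 without mutant replicate 2 or 3, and 3 without control replicate 1, with limma-voom, with library size only or with a filter of 1 CPM in 3 libraries. Of 9 skeletal muscle fibre markers tested, 6 were lower and none higher, and their sum of 10.8 to 68.5 CPM in the controls was 5.81 to 6.31 CPM in the mutants. Tnni1, a slow muscle troponin, was at -3.54 (SE 0.49) and the embryonic myosin Myh3 at -5.12 (SE 1.12). Of the fibre genes, 2 were lower without mutant replicate 2, 3 without mutant replicate 3 or with the 1 CPM filter, and 1 with limma-voom.

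Neural crest and pigment genes that Pax3 and Pax7 act with were 4 higher, 1 lower and 7 not past the threshold of 12 tested, with a median of 0.45. Tfap2a, an AP-2 factor of neural crest and surface ectoderm, rose from 18.5, 10.8 and 17.0 CPM to 42.1, 43.9 and 44.4 CPM (1.49, SE 0.19, edgeR adjusted p = 0.00106). Kit, the receptor of melanoblasts, mast cells and other precursors, rose (0.78, SE 0.09), as did Erbb3, a neuregulin receptor of glia and epithelia (1.32, SE 0.27). Snai2, a factor of neural crest mesenchyme, fell (-0.58, SE 0.08). Sox10, the defining factor of neural crest glia and pigment cells, had 11.7, 15.3 and 10.3 CPM in the controls and 11.3, 21.0 and 15.7 CPM in the mutants and did not pass (0.36, SE 0.25). Mitf, the remaining gene of the 4 that rose, had 4.13, 6.28 and 5.64 CPM in the controls. In the mutants it had 8.43, 9.36 and 9.94 CPM (0.79, SE 0.19, edgeR adjusted p = 0.0136). The pigment enzyme genes Tyr, Dct and Tyrp1 had too few counts to be tested. Of 8 neuron markers, 5 were lower and none higher, with Tubb3 at -2.93 (SE 0.30). All 10 epithelial markers were higher, with sums of 1013 to 1697 CPM in the controls and 5282 to 5944 CPM in the mutants. Without control replicate 2 or 3 the number of lower genes in the neural crest and pigment list was 2. The part of other cell types in these changes and in the rise of Pax3 was not tested.

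Frontonasal genes expressed alongside Alx genes were 1 higher, 3 lower and 4 not past the threshold of 8 tested, with a median of -0.21. Six2, a mesenchymal homeobox gene, had 341, 343 and 289 CPM in the controls and fell to 126, 142 and 169 CPM (-1.16, SE 0.12, edgeR adjusted p = 0.000546). Pdgfra, a growth factor receptor of craniofacial mesenchyme, fell (-0.51, SE 0.12), but not past the threshold with the Y-linked covariate. Tfap2a was the gene that rose, and the number of higher genes was 2 without mutant replicate 1 or without replicate 1 of both groups. Fgf8, a facial ectoderm signal, fell (-6.31, SE 1.88, edgeR adjusted p = 0.0287), with 703, 28 and 32 counts in the controls and 0, 4 and 2 in the mutants, and it lost the call without any 1 of the mutant libraries. Fgf8 did not pass with the replicate number as a block either (-5.04, edgeR adjusted p = 0.0521), nor with limma-voom (-4.41, adjusted p = 0.186).

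**Figure D5:**
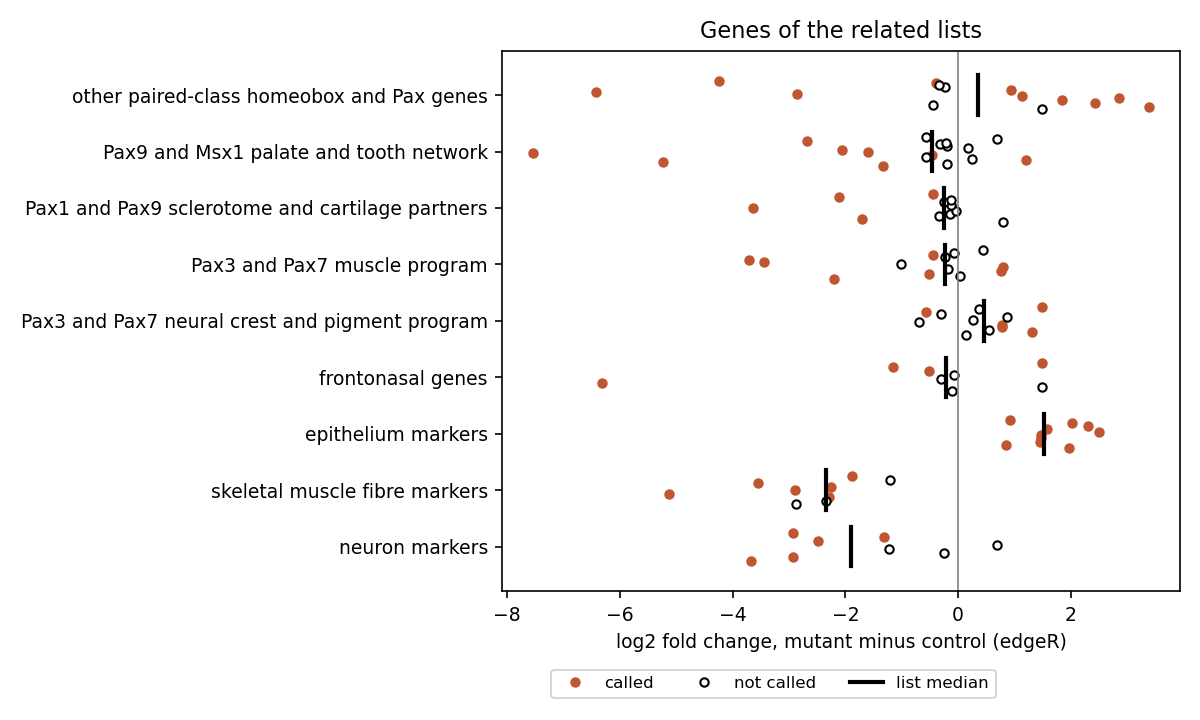
Log2 fold change (edgeR, mutant minus control) of the tested genes of 9 lists related to the members, filled where the adjusted p was under 0.05, with a vertical bar at each list's median. All 10 epithelium markers lie to the right of 0 and are filled, and the Pax9 and Msx1 network has 7 filled points to the left and 1 to the right.

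The nearest counted protein-coding genes that lie wholly outside each member, 2 a side and 24 in all, gave 19 tested genes. Ext2 and Slc25a21, protein-coding genes that overlap Alx4 and Pax9, were left out of these. Neither passed (0.06, SE 0.07, for Ext2 and 0.06, SE 0.17, for Slc25a21). Of the 19 flanking genes tested, 8 were higher and 1 lower in the mutant. That is 9 of 19, beside 45.8% of all genes. By direction, 24.1% of all genes were higher and 21.7% lower, and the difference from the flanking genes was not tested. Lrriq1, 15.8 kb from Alx1, had 0.631, 1.78 and 2.87 CPM in the controls and 21.2, 38.3 and 35.6 CPM in the mutants (4.15, SE 0.53, edgeR adjusted p = 0.00104), a larger log2 rise than that of Alx1. Rassf9, 449 kb on the other side of Alx1, rose as well (1.36, SE 0.23). Cd82, a tetraspanin gene 179.2 kb from Alx4, rose (1.41, SE 0.12) where Alx4 did not pass. Nkx2-1, a factor of lung, thyroid and forebrain 154.9 kb from Pax9, rose from 2 counts over the controls to 46 over the mutants. Mipol1, 517.6 kb from Pax9, rose by 0.86 (SE 0.20). Neither passed with the Y-linked covariate (edgeR adjusted p = 0.0551 for Nkx2-1 and 0.105 for Mipol1). Nkx2-9, 78.5 kb from Pax9, and Nkx2-2, 167.7 kb from Pax1, had no counts in any library. Foxa2, an endoderm factor 649.6 kb from Pax1, rose from 94 to 161 counts (1.82, SE 0.56, edgeR adjusted p = 0.0323), and that call was lost without control replicate 2 or mutant replicate 2 or 3 and with the Y-linked covariate (edgeR adjusted p = 0.0582). Klhdc7a (3.47, SE 0.47) and Aldh4a1 (0.31, SE 0.09) rose near Pax7, the latter not without control replicate 2 or 3 or mutant replicate 3, nor with the Y-linked covariate (edgeR adjusted p = 0.0744). Farsb fell near Pax3 (-0.32, SE 0.06).

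Genes with the most similar pattern over the 6 libraries were found by the root mean square distance between mean-centred log2 levels, a description that rests on 6 points sharing the same 2 groups. For Pax3 they were Nup210l (distance 0.0396), Erap1 (0.0653) and Efcab4a (0.069). For Alx1 they were Shroom2 (0.0528), Fam63b (0.0534) and Mef2a (0.0555), and for Pax9 they were Slc26a2 (0.0588), Slc12a2 (0.0622) and Sepsecs (0.0624). Alx4 was nearest to Nid2 (0.0961), Dach2 (0.1) and Pdgfd (0.102), which like Alx4 were lower in mutant replicate 1 than in mutant replicates 2 and 3. Pax1 was nearest to Rab38 (0.201), Sv2c (0.206) and Uhmk1 (0.207), at larger distances. Tfap2c (0.156) and Shh (0.164) were among the 3 nearest to Pax7, and its own variation is compressed by the 0.5 CPM added before the log.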

How the data were processed

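The authors deposited integer counts of reads for each gene symbol in 3 control and 3 mutant libraries. Per the submitters' processing notes, HISAT2, StringTie and the builds mm9 and mm10 are listed, with no version or role; HISAT2 appears per the file headers of 4 libraries as well. Which program counted reads, with what strand setting and annotation, was not given in the sources used here, and reads of genes that overlap on opposite strands may be mixed. The deposited counts went into edgeR 4.0.16 under R 4.3.3: filterByExpr by group, TMM scaling, quasi-likelihood F test without covariates, Benjamini-Hochberg adjustment over 16604 genes, threshold 0.05. The SE was obtained by dividing the size of the log2 fold change by the root of F. Floors use 3 counts, cover counting error alone and take each count as independent. Even numbers were in excess among low counts, so the true bounds may be higher. No 2 libraries of a group agreed within sampling noise (chi-square per degree of freedom 16.1 to 146). Positions and exon lengths come from GENCODE M21, with 98.5% of symbols matched, and promoters from RefSeq on GRCm38.p6, which has entries for 3 of the 6 members. The fit was tested on simulated data.

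The members, lists and tests were chosen with earlier results of these data known, and the 3 ratios after the levels were seen. The genes named are the members, up to 4 called genes with the smallest p per list (2 as values where none was called), called flanking genes and the 3 most similar genes per member, and some genes the rule names are not reported here. Pax2, Pax4, Pax5, Pax6, Pax8, Bmp4, Sox9, Acan, Sox10, Mitf, Myod1, Myf5, Tyr, Dct, Tyrp1, Nkx2-2, Nkx2-9 and the overlapping genes were named after their values were seen. Alternatives were DESeq2 1.42.0, limma-voom (limma 3.58.1), other scalings and filters, a GC and length offset, a replicate block, a Y-linked covariate, halved counts, thinned counts and libraries left out.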

Additional observations from a re-analysis of the deposited data

How the results depend on the processing

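Over 19 alternatives (18 for Pax7, which a filter of 1 CPM in 3 libraries removed), Pax3 kept its direction and its call at log2 fold changes from 1.06 to 1.34 and Alx1 from 0.55 to 0.78. Pax9 kept its direction, from 0.26 to 0.62, and lost its call with the Y-linked covariate (0.26, edgeR adjusted p = 0.1). The cause was not tested, and the effect of this covariate cannot be fully told apart from that of genotype. Alx4, Pax1 and Pax7 passed under none of the alternatives run. Alx4 changed sign with upper quartile scaling (0.00968), library size only (0.0459), the 1 CPM filter (0.00481), the Y-linked covariate (0.23), without replicate 1 of both groups (0.0611) and among the fits with 1 library left out (-0.16 to 0.17). Pax1 changed sign with the Y-linked covariate (-0.19) and among the fits with 1 library left out (-0.12 to 0.59). The cause of these changes of sign was not tested. The number of genes called overall was 7606 and ran from 5231 to 9104, and that of members called was 2 with the Y-linked covariate and 3 otherwise.

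With the replicate number as a block, 7022 genes were called, and the values were 1.18 for Pax3, 0.64 for Alx1, 0.51 for Pax9, 0.24 for Pax1, -0.03 for Alx4 and -0.75 for Pax7, with no member's call changed; Fgf8 lost its call. Deviations of same-numbered libraries correlated at 0.0826, 0.102 and 0.035, and 5 of 6 libraries correlated best with their own number, a hint from the data and not from the design, so the numbers were not taken to pair the samples. Pax7 and Pax1 had the fewest counts of the members, 56 and 584 over the mutants, and with all libraries thinned to equal depth their SE was 0.58 and 0.39, beside 0.60 and 0.37 without thinning.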
